A study of Saccharomyces cerevisiae with 9 samples.

Results

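The genes RPL1 to RPL34 of Saccharomyces cerevisiae encode proteins of the large ribosomal subunit, and their chromatin was read from total histone MNase-Seq of WT cells. The members were chosen by systematic name, with both paralogs where a protein has a pair of genes. Of 60 listed genes, 52 had a row in both deposited tables, which hold 2426 protein-coding genes. The 8 genes without a row were RPL9B, RPL11A, RPL15B, RPL17A, RPL19A, RPL21A, RPL29 and RPL31B, and they were not analysed here. The remaining 2374 genes of the tables served as the comparison.

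The WT cells did not carry the RTR1 deletion of other samples in the series, were isogenic to BY4741 and were taken at an OD600 of 0.8. Their chromatin was cut with micrococcal nuclease, and the protected DNA was sequenced. A high signal thus marks DNA that was protected, usually by a nucleosome. The tables give 1 sample, so no replicate error, test or p-value can be given, and every comparison below is a description of this library. The other 8 samples of the series, ChIP-exo libraries, were not analysed here.

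Ribosomal protein genes are among the most heavily transcribed genes of growing yeast. Many carry sites for Rap1, a DNA-binding general regulatory factor that recruits the activators Fhl1 and Ifh1, and some use another such factor, Abf1. At most yeast promoters a stretch of DNA poor in nucleosomes lies upstream of the TSS and is followed by a well-placed first nucleosome, called +1. A whole-genome duplication left most ribosomal proteins with a pair of genes, and ribosomal protein genes hold a large part of the introns of yeast.

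The signal is read coverage scaled to library size (RPM), and 1 read over a base is worth 0.0300 RPM. A level of 3.13 RPM, which is 50% of the mean of all genes over the TSS window, thus stands for 104.1 reads over a base of 1 gene. The spread from gene to gene is far larger than the counting error of such values. Values under 3 reads, or 0.0901 RPM, were taken as too low to be told from 0. The library holds 33313664 reads on this scale. The TSS table has a bin every 25 nucleotides from -500 to 1000, and the TES table has one every 6.67 nucleotides from -200 to 200.

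The following stretches of 60 bases of coding sequence were taken from the R64 genome, which is the assembly of sacCer3, and are shown because the signal over them went with how far the copies differ. Capitals mark the bases at which the copies of a pair differ, and a stretch in lower case alone is the same in both.
RPL4A: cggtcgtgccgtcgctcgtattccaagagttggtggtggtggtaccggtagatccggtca
RPL4B: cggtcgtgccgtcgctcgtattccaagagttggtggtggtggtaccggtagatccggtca
RPL24A: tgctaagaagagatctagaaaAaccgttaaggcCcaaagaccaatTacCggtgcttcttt
RPL24B: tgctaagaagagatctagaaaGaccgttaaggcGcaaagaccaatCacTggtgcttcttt
RPL22A: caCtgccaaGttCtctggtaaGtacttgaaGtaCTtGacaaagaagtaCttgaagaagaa
RPL22B: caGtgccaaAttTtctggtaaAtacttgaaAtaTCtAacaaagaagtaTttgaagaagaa

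The RPL4A stretch (chrII:300366-300425, + strand) and the RPL4B stretch (chrIV:472053-472112, + strand) were identical, and both held a signal under the worth of 1 read. The RPL24A stretch (chrVII:437675-437734, - strand) and the RPL24B stretch (chrVII:787520-787579, - strand) differed at 4 bases and held 0.730 and 0.540 RPM. The RPL22A stretch (chrXII:263783-263842, + strand) and the RPL22B stretch (chrVI:64352-64411, - strand) differed at 9 bases and held 4.01 and 6.28 RPM. All 6 stretches lie in coding exons. Signal was thus close to nil over the identical pair, low over the pair with 4 differences and within the usual range over the pair with 9.

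The depletion upstream of the TSS was slightly narrower at the RPL genes than at the other genes. Its width was taken as the stretch around the lowest bin from -300 to 0 nucleotides in which the signal stayed under 3.13 RPM. The median width was 23.9 nucleotides over 52 RPL genes and 36.3 nucleotides over 2374 other genes. The RPL genes spread from 0 to 166 nucleotides, with quartiles of 0 and 49, and the other genes had quartiles of 0 and 73.2. A width of at least 150 nucleotides was found at 3 of 52 RPL genes, against 4.04% of all genes, so that the share of wide depletions lay near the background. No bin fell under the level at 16 of the 52 RPL genes, against 26.8% of all genes. None of the 52 had another place of at least 90% identity in the genome between -300 and -50 nucleotides, and none of the 36 depletions held such a bin. RPL4A and RPL8A each had a stretch of 84% identity to another place, and it covered the lowest bin of both. Between -300 and 0 nucleotides, where windows near the TSS take in the start of the gene, 18 of the 52 had a place of at least 90%.

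The widest depletions belonged to RPL8A (YHL033C) and RPL8B (YLL045C), RPL4A (YBR031W) and RPL4B (YDR012W), and RPL3 (YOR063W). Rpl4 lines the tunnel through which the new protein leaves the ribosome, and Rpl3 lies near the centre where peptide bonds are made. At RPL8A the signal stayed under the level from -261 to -95.0 nucleotides, a width of 166 nucleotides, and fell to 0.717 RPM at -150 nucleotides. RPL4B had a width of 162 nucleotides, from -202 to -40.5, with a lowest bin of 1.30 RPM. RPL8B had a width of 153 nucleotides, from -205 to -52.8, with a lowest bin of 1.69 RPM.

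Just outside the bound of 150 nucleotides lay RPL3, with a width of 147 nucleotides and a lowest bin of 1.65 RPM, and RPL4A, with a width of 145 nucleotides and a lowest bin of 0.722 RPM. The next was RPL22B (YFL034C-A) with 111 nucleotides. All 5 of the widest belong to genes without an intron, and 17 of the 52 RPL genes have none. The median width was 45.2 nucleotides over the 17 genes without an intron and 18.3 nucleotides over the 35 with one, while it was 36.9 and 22 nucleotides over other genes without and with an intron.

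**Figure D1:**
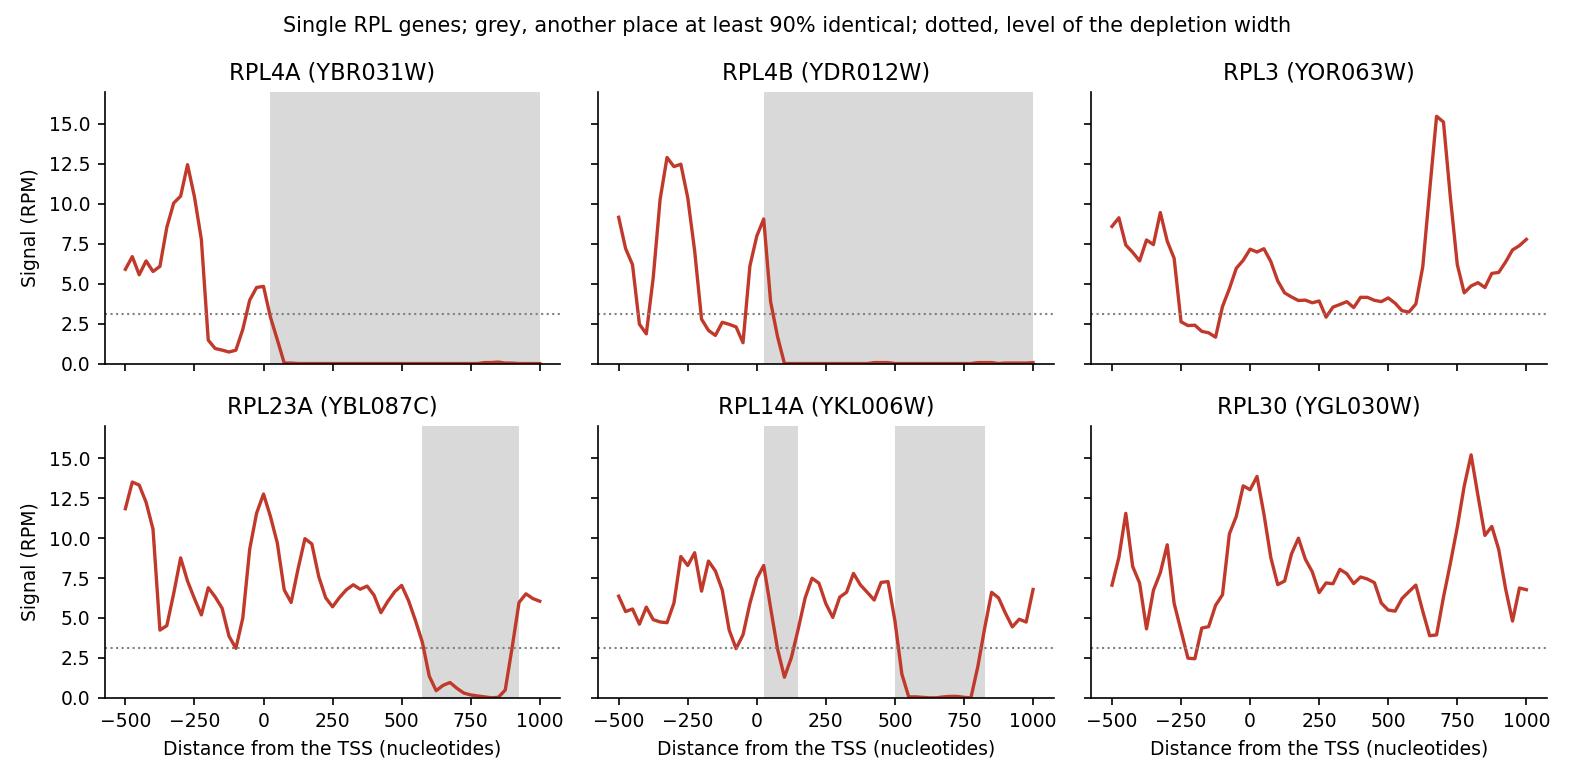
Signal in RPM against distance from the TSS in nucleotides at 6 RPL genes, with grey over coding bins whose 50-nucleotide window is at least 90% identical to another place and a dotted line at 3.13 RPM, the level of the depletion width. RPL4A, RPL4B and RPL3 show the wide depletion, the signal of RPL4A, RPL4B, RPL23A and RPL14A drops to near 0 within the grey, and RPL30 and RPL3 have no grey.

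At the other end, 16 RPL genes never fell under the level between -300 and 0 nucleotides. Among these the lowest bin was highest at RPL2A (YFR031C-A) with 4.53 RPM, RPL20B (YOR312C) with 4.50 RPM, RPL33B (YOR234C) with 4.34 RPM, RPL12A (YEL054C) with 4.28 RPM and RPL20A (YMR242C) with 4.14 RPM. Rpl12 is part of the stalk base, where translation factors dock. In these 5 genes even the lowest bin upstream of the TSS stayed above 50% of the mean of all genes.

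The depth of the depletion, as opposed to its width, was taken over the 4 fixed bins that end at -50 nucleotides. The median level there was 4.79 RPM over the RPL genes and 4.36 RPM over the other genes. A level under 50% of that over the bins from 0 to 75 nucleotides, where the +1 nucleosome lies, was found at 19 of 52 RPL genes, against 50% of all genes. This share depends on the +1 bins, and 22 of the 52 have a near-identical copy within the +1 window. Where at least 99% of the 50-mers of the TSS window occur once in the genome, it was 44% of 25 RPL genes, against 51.3% of all such genes. The level was not under that of the +1 bins at 5 of the 52, namely RPL1A (YPL220W), RPL15A (YLR029C), RPL20B, RPL24A (YGL031C) and RPL24B (YGR148C), against 8.66% of all genes. At RPL1A, RPL15A, RPL24A and RPL24B a near-identical copy reaches into the +1 bins.

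On average the RPL genes had their trough in the same bin as the other genes but a different shape upstream of it. Other ribosomal protein genes shared that shape only in part. The mean profile was lowest at -75 nucleotides in both, with 3.9 RPM over the RPL genes and 4.18 RPM over the other genes. Upstream of it the RPL genes had a local peak at -150 nucleotides with 6.82 RPM, beside a shallow dip to 6.11 RPM at -200. That peak was no higher than some of their bins further upstream, with 6.92 RPM at -275 and 7.08 RPM at -500. The other genes rose without a break to a peak of 7.81 RPM at -225. Over the 3 bins around -150 nucleotides the median was 6.96 RPM at the RPL genes and 5.32 RPM at the other genes. Over those from -250 to -200 it was 6.70 RPM at the RPL genes and 7.75 RPM at the other genes. In the same 2 windows the medians were 6.38 and 6.96 RPM over 46 small-subunit genes, whose mean profile also peaked at -150 nucleotides, with 6.57 RPM. Over 12 other large-subunit genes they were 7.17 and 5.65 RPM. The windows were chosen after the profile was seen.

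**Figure D2:**
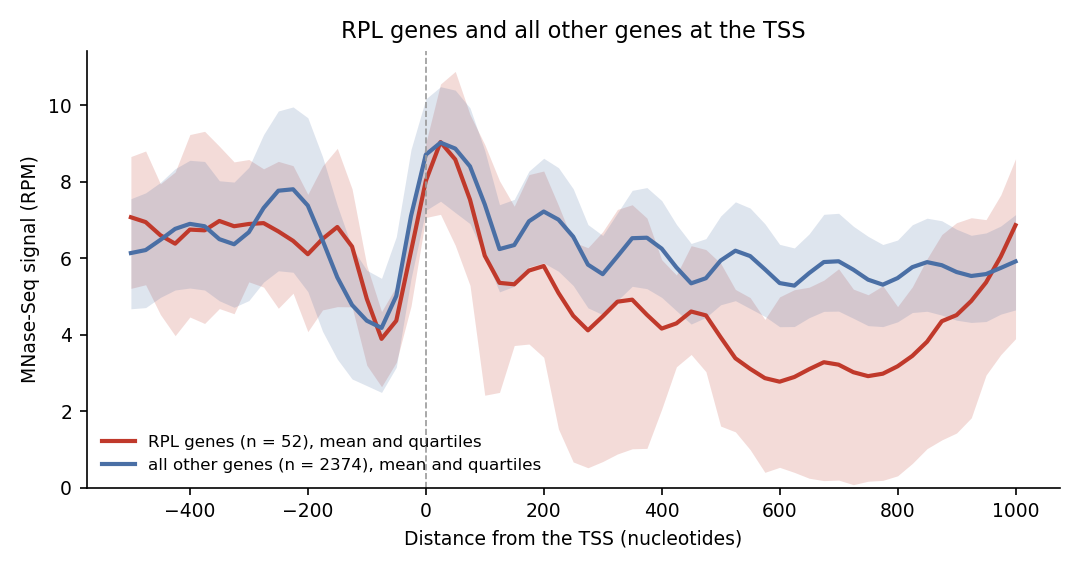
Mean signal in RPM (lines) and quartiles over genes (bands) against distance from the TSS in nucleotides, for 52 RPL genes and 2374 other genes. The RPL genes show a local peak of 6.82 RPM at -150 nucleotides and a +1 peak at 25 nucleotides like that of the other genes. Their mean signal falls to 2.78 RPM at 600 nucleotides.

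Single genes differed widely in the 3 bins around -150 nucleotides. The highest signal there was at RPL2B (YIL018W), whose protein lies close to the centre of peptide bond formation, with 15.1 RPM, followed by RPL6A (YML073C) with 11.8 RPM and RPL22A (YLR061W) with 9.70 RPM. At RPL2B the bin at -150 nucleotides and the next one downstream held 16.5 and 16.8 RPM, and the depletion was squeezed into the bins from -75 to -25, with 4.37, 3.38 and 4.43 RPM. The lowest were RPL4A with 0.835 RPM, RPL8A with 1.54 RPM and RPL3 with 1.86 RPM, whose wide depletions cover these bins.

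The lowest bin between -300 and 0 nucleotides lay at -200 or further upstream at 11 of the 52 RPL genes and at 517 of the 2374 other genes. At RPL10 (YLR075W), the gene of a late-joining protein needed for the subunits to meet, the signal was 0.540 RPM at -350 nucleotides and 0.630 RPM at -325, while it was 6.40 RPM at -75. At RPL34A (YER056C-A) the lowest bin lay at -275 nucleotides with 0.692 RPM, and at RPL15A at -250 nucleotides with 1.16 RPM. In these genes a trough apart from the usual site lay far upstream, with bins above the level between it and the TSS.

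Motifs were searched on both strands in the 475 bases before the start codon of each gene. The Rap1 motif ACCCNTACA was found at 14 of 52 RPL genes, at 34 of 2372 other genes and at 1.98% of all 2424 promoters searched. Of those 34 other genes, 10 were among the 46 small-subunit genes and 6 among the 12 other large-subunit genes, so the motif was not particular to the RPL genes. With up to 1 mismatch it was found at 38 RPL genes, at 590 other genes and at 25.9% of all promoters. The Fhl1 motif GACGCA was found at 12 RPL genes, at 202 other genes and at 8.83% of all promoters. The Abf1 motif, which is TCA and ACG with any 6 bases between them or CGT and ACGAT with any 5, was found at 10 RPL genes, at 589 other genes and at 24.7% of all promoters. A run of at least 8 A or 8 T was found at 31 RPL genes, at 1062 other genes and at 45.1% of all promoters. The Abf1 and Fhl1 motifs overlap at RPL4A and RPL13B (YMR142C). A match is a description of the letters and not a measured site.

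Signal at the Rap1 motifs varied from gene to gene. The start codon was placed 25 nucleotides after the TSS in every gene, an approximation, so that positions relative to the bins may be off by more than a bin. The 16 motifs of the 14 RPL genes lay between -441 and -189 nucleotides from the TSS, upstream of the mean depletion. The signal within 20 nucleotides of the motif had a median of 4.78 RPM at the RPL genes and 5.34 RPM at the 36 motifs of other genes. It was under the signal 100 to 140 nucleotides downstream at 12 of 16 motifs of RPL genes and at 23 of 36 motifs of other genes. The sites of RPL34A, RPL26A and RPL25 are shown as those with the lowest signal and the site of RPL2B as the one with the highest, with the motif in capitals on the strand of the gene.
RPL34A: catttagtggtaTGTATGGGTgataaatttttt
RPL26A: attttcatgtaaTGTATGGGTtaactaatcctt
RPL25: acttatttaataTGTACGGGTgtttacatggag
RPL2B: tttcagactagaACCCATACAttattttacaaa

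At RPL34A the motif (shown from chrV:270477-270509, gene on the - strand) is centred at -283 nucleotides, where the signal was 1.18 RPM, against 6.59 RPM upstream and 6.65 RPM downstream of it. With the start codon placed as above, it falls in the separate trough of that gene, which runs from -339 to -231 nucleotides. At RPL26A (YLR344W, chrXII:819030-819062, + strand) it is centred at -241 nucleotides with 3.02 RPM, against 9.82 RPM upstream and 6.46 RPM downstream. At RPL25 (YOL127W, chrXV:79938-79970, + strand) it is centred at -369 nucleotides with 3.25 RPM, against 8.04 RPM downstream. At RPL2B (chrIX:316342-316374, + strand) it is centred at -385 nucleotides with 8.55 RPM, against 9.88 RPM downstream. The RPL2B motif lies within 25 nucleotides of a bin of 4.40 RPM at -400, on a steep edge, so its value depends on the placement of the start codon.

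Among the 5 widest depletions the Abf1 motif occurred at RPL3, RPL4A, RPL4B and RPL8B. It was found at 10 of all 52 RPL genes and at 24.7% of all promoters. These 5 genes were picked by their low signal, so a low value at a site inside the depletion was fixed beforehand. The sites of RPL3, RPL4A and RPL8B fall inside the depletion of their gene, and that of RPL4B falls in the peak upstream of it. They are shown for that reason, with the motif in capitals.
RPL3: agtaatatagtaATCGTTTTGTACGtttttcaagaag
RPL4A: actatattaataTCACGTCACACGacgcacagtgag
RPL8B: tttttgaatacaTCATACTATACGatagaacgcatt
RPL4B: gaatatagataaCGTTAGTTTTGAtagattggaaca

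At RPL3 (chrXV:444442-444478, + strand) the motif is centred at -201 nucleotides with 2.30 RPM, against 8.36 RPM upstream. At RPL4A (chrII:299973-300008, + strand) it is centred at -150.5 nucleotides with 0.838 RPM, against 11.3 RPM upstream. At RPL8B (chrXII:48781-48816, - strand) it is centred at -144.5 nucleotides with 2.51 RPM, against 3.79 RPM upstream. At RPL4B (chrIV:471514-471549, + strand) it is centred at -296.5 nucleotides with 12.5 RPM. The Fhl1 motif was found at 12 of the 52 RPL genes and at 8.83% of all promoters. It lay inside the depletion of RPL3, RPL4A, RPL4B and RPL8A, where the signal was 2.13, 0.810, 2.2 and 2.07 RPM. Over all 12 Fhl1 motifs of RPL genes the median was 5.60 RPM, against 6.11 RPM over 208 motifs of other genes. The highest of the 12 was at RPL2A with 9.25 RPM.

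The +1 peak of the RPL genes was about as high as that of the other genes. The highest bin from -50 to 150 nucleotides, refined with a parabola, had a median of 10.2 RPM over the RPL genes and 10.3 RPM over the other genes. A peak above 11.8 RPM, the third quartile of all genes, was found at 12 of 52 RPL genes, against 25% of all genes. Where no near-identical copy lies within the +1 window, the order turned round, with a median of 11.3 RPM at 30 RPL genes and 10.4 RPM at 2279 other genes. At the 22 RPL genes with a copy there the median was 8.32 RPM.

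The 3 highest +1 peaks were those of RPL34A with 17.5 RPM, RPL30 (YGL030W) with 13.9 RPM and RPL16B (YNL069C) with 13.9 RPM. Rpl30 binds its own transcript and blocks its splicing. The 3 lowest were those of RPL24B with 4.83 RPM, RPL4A with 5.05 RPM and RPL24A with 5.17 RPM. In each of these 3 genes a copy reaches into the window of the peak.

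The +1 peak was centred at a median of 35.2 nucleotides over the RPL genes and 31.6 nucleotides over the other genes, a difference that is small beside the bin of 25 nucleotides. It lay between 0 and 75 nucleotides at 44 of the 52 RPL genes, against 64.4% of all genes. At RPL7A (YGL076C), RPL7B (YPL198W), RPL12B (YDR418W) and RPL20B it lay further downstream, up to 133 nucleotides at RPL7A. At RPL27B (YDR471W) the fitted position was 163 nucleotides, past the end of the window searched. The highest bin of RPL27B thus lay at the edge of that window, and no +1 peak was located there.

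Over the gene body the RPL genes had a much lower signal than the other genes. The mean over bins from 150 nucleotides to the end of the coding span, or to 1000 nucleotides where that came first, had a median of 3.79 RPM over 52 RPL genes and 5.96 RPM over 2366 other genes. A mean under 4.44 RPM, which is 0.75 times the median of all genes, was found at 32 of 52 RPL genes, against 11.5% of all genes. The lowest were RPL4A and RPL4B, both under the worth of 1 read, and RPL1B (YGL135W) with 0.0429 RPM, which is under the floor of 3 reads. The highest were RPL30 with 7.41 RPM, RPL28 (YGL103W) with 6.41 RPM and RPL22B with 6.15 RPM. Rpl28 is the protein through which mutants resist the translation inhibitor cycloheximide.

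**Figure D3:**
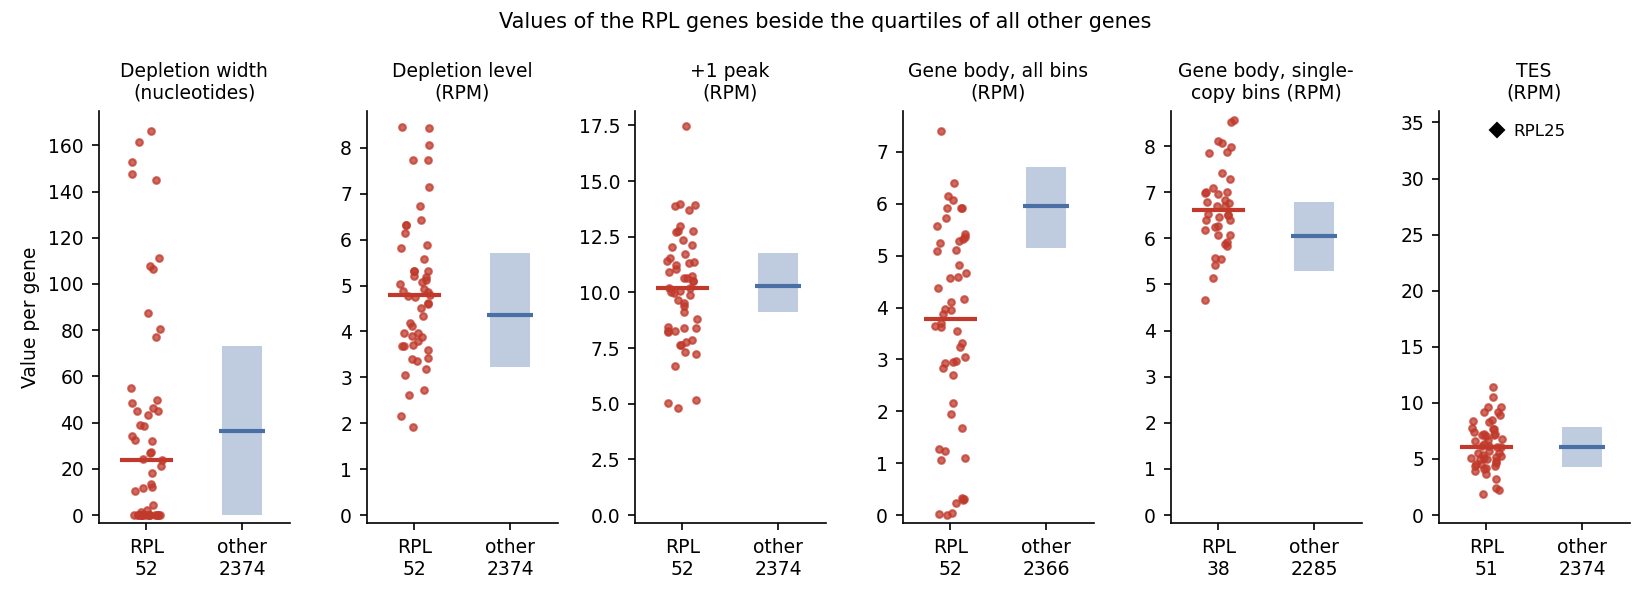
Values of each RPL gene (points, with a line at the median) beside the quartiles and median of the other genes (box and line), with the number of genes under each, for 6 measures in nucleotides or RPM. The RPL genes lie mostly below the other genes over all gene-body bins but not over single-copy bins, and RPL25 stands apart at the TES with 34.4 RPM.

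This low signal went with the sequence that the RPL genes share with other places in the genome. At each bin the identity of the surrounding window of 50 nucleotides to its closest other place was taken. At least 1 body bin with an identity of 90% or more was found at 43 of 52 RPL genes, against 11.1% of all genes. Of these 43 genes 14 had a copy at every body bin, and 13 of the 14 have no intron.

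Over exon bins of the RPL genes the median signal was 5.98 RPM where the identity was under 80%, 5.95 RPM at 80 to under 90%, 3.9 RPM at 90 to under 95%, 0.561 RPM at 95 to under 100% and 0.0593 RPM at 100%. Over exon bins of the other genes the medians in the same classes were 6.07, 5.65, 5.0, 1.10 and 0.0600 RPM. Where the identity was 100%, 134 of 309 bins of the RPL genes and 521 of 1231 bins of the other genes held less than the worth of 1 read. The loss of signal with identity was thus seen in both groups of genes. How reads that map to more than one place were treated is not given in the sources used here.

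**Figure D4:**
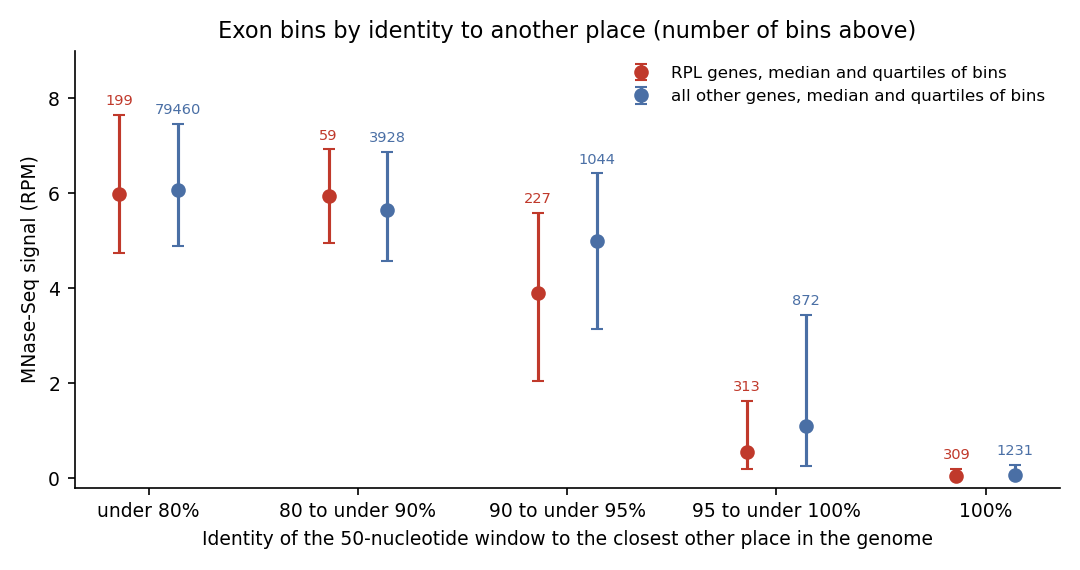
Median and quartiles of the signal in RPM over exon bins, by the identity of the 50-nucleotide window to its closest other place, for RPL genes and all other genes, with the number of bins above each. Bins under 90% identity sit near 6 RPM in both groups, and bins at 100% sit near 0.06 RPM in both.

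At single-copy bins, where no window within 37 nucleotides reached an identity of 80%, the direction turned round. The gene-body median was then 6.61 RPM over the 38 RPL genes with such bins and 6.05 RPM over 2285 other genes. A single-copy mean under 0.75 times its median over all genes was found at 0 of 38 RPL genes, against 8.61% of all genes. In the 29 RPL genes that have both kinds of bin, the single-copy bins were higher than the copy bins in 29 of 29, with medians of 6.76 and 2.14 RPM. At copy bins the median was 1.64 RPM over 43 RPL genes.

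Most single-copy bins of the RPL genes lie in introns, which diverge between paralogs. Single-copy intron bins had a median of 6.73 RPM over 34 RPL genes and 6.58 RPM over 78 other genes. Single-copy exon bins had a median of 5.56 RPM over only 7 RPL genes and 6.04 RPM over 2243 other genes. So the higher single-copy value of the RPL genes rests largely on introns, and in exons their median was the lower of the pair.

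The 9 RPL genes with no copy over the body had a median of 5.92 RPM, close to the 6.02 RPM of the 2142 other genes without one. These are the single genes RPL3, RPL5 (YPL131W), RPL10, RPL25, RPL28, RPL30 and RPL32 (YBL092W) and the diverged pair RPL22A and RPL22B. Their body signals were 5.56 RPM at RPL3, 4.67 RPM at RPL5, 5.42 RPM at RPL10, 5.93 RPM at RPL25, 6.41 RPM at RPL28, 7.41 RPM at RPL30, 6.07 RPM at RPL32, 5.31 RPM at RPL22A and 6.15 RPM at RPL22B. Rpl5 binds the 5S ribosomal RNA. No one of the 9 fell under 4.44 RPM.

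Both copies were in the tables for 19 proteins. Coding identity ran from 79.4% at RPL22 to 99.4% at RPL1, with a median of 93.2%. Body signals of paralogs were alike in many pairs, with 4.11 RPM at RPL23A (YBL087C) and 4.16 RPM at RPL23B (YER117W), and 4.57 RPM at RPL34A and 4.58 RPM at RPL34B (YIL052C). They were less alike at RPL2A, where every body bin has a copy, with 1.11 RPM, and at RPL2B with 2.95 RPM. The share of body bins with a copy was 51.6% and 53.3% at RPL23A and RPL23B, and 56% and 50% at RPL34A and RPL34B. Likeness of paralogs apart from this share was not tested.

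Upstream of the TSS the profiles were alike in some pairs of paralogs and not in others. The correlation of both profiles over the 18 bins from -450 to -25 nucleotides had a median of 0.325 over the 19 pairs and ranged from -0.730 at RPL26A and RPL26B (YGR034W) to 0.885 at RPL4A and RPL4B. Over the 1307 other pairs of RPL genes the median was 0.147, with a range from -0.865 to 0.922. The correlation was positive in 11 of the 19 pairs of paralogs and in 799 of the 1307 other pairs. Neighbouring bins share reads, and all genes share the library and the usual depletion. The pairs RPL4A with RPL4B, RPL33A (YPL143W) with RPL33B, RPL6A with RPL6B (YLR448W) and RPL8A with RPL8B had 0.885, 0.845, 0.75 and 0.640. At RPL22 the widths were 31.9 nucleotides in RPL22A and 111 in RPL22B, and at RPL16 they were 87.3 in RPL16A (YIL133C) and 0 in RPL16B.

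At the TES the RPL genes were much like the other genes, with RPL25 as the exception that is treated on its own. Over bins from -30 to 80 nucleotides the median was 6.06 RPM over 51 RPL genes and 6.04 RPM over the other genes. A signal under 4.53 RPM, which is 0.75 times the median of all genes, was found at 10 of 51 RPL genes, against 27.9% of all genes. No near-identical copy lies in these bins at any of the 51. Where the next gene downstream lies on the same strand the median was 6.10 RPM at 34 RPL genes and 5.54 RPM at 1607 other genes. Where it runs in the opposite direction the order turned round, with 6.06 RPM at 17 RPL genes and 6.76 RPM at 765 other genes.

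Among the highest of the 51 were RPL26A with 11.4 RPM and RPL21B (YPL079W) with 9.67 RPM. The 3 lowest were RPL33A with 1.92 RPM, RPL22A with 2.25 RPM and RPL7A with 2.41 RPM. Paralogs could differ here as well, with 2.41 RPM at RPL7A and 9.23 RPM at RPL7B.

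Upstream of the TES the signal was lower at the RPL genes than at the other genes. The mean profile of the RPL genes had a low peak of 5.43 RPM at -80 nucleotides, while that of the other genes peaked at -100 nucleotides with 7.56 RPM. Over bins from -140 to -70 nucleotides the median was 4.79 RPM over the RPL genes and 7.49 RPM over the other genes. The ratio of these bins to those at the TES had a median of 0.778 over the RPL genes and 1.16 over the other genes. A ratio of at least 1.5 was found at 5 of 51 RPL genes, against 33.2% of all genes, and a ratio under 1 at 34 of 51, against 38.5% of all genes. The 5 genes with a ratio of at least 1.5 were RPL7A, RPL12A, RPL20B, RPL22A and RPL22B. The low ratio was also seen over small-subunit genes, with a median of 0.774 and 34 of 46 under 1, and over other large-subunit genes, with a median of 0.725 and 11 of 12 under 1.

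These upstream bins lie over the end of the coding sequence, and 41 of the 51 RPL genes have a near-identical copy there. The ratio was 0.759 over those 41 RPL genes and 0.930 over the 10 without a copy. Over other genes it was 0.821 at 138 with a copy and 1.18 at 2235 without. In genes without a copy the RPL genes thus still had the lower ratio, over 10 genes. At -200 nucleotides, well inside the coding sequence of most, the mean signal was 2.00 RPM over the RPL genes and 6.57 RPM over the other genes.

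**Figure D5:**
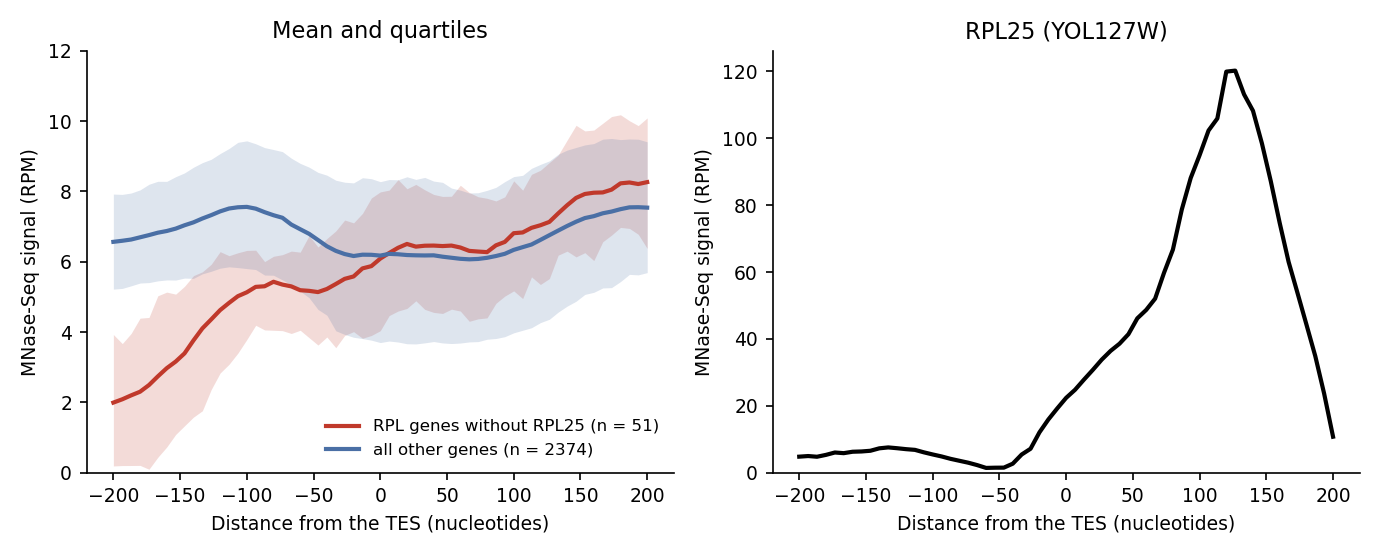
Signal in RPM against distance from the TES in nucleotides. On the left, mean (lines) and quartiles (bands) of 51 RPL genes and 2374 other genes, which meet near the TES after a low signal upstream in the RPL genes; on the right, RPL25 alone on a wider axis, with its peak of 120.2 RPM at 127 nucleotides.

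RPL25 (YOL127W, chrXV:80348-81190, + strand), whose protein lies at the exit of the peptide tunnel, stood far above the others at the TES. Its signal from -30 to 80 nucleotides was 34.4 RPM, which was 5.67 times the median of the other 51 RPL genes and 3.01 times the highest of them. It ranked 2 among the 2426 genes. The signal was 2.31 RPM at -66.7 nucleotides, 22.4 RPM at the TES and 94.9 RPM at 100 nucleotides. It peaked at 127 nucleotides with 120.2 RPM, or 4005 reads over a base, and returned to 10.8 RPM at 200 nucleotides. It stayed above 50% of the peak from 80 to 167 nucleotides.

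The TSS table showed the same rise, with 2.30 RPM at 900 nucleotides, 13 RPM at 925 and 48.3 RPM at 1000. The peak thus lies beyond the coding span, in the 596 nucleotides that part RPL25 from YOL126C, which is transcribed towards it. Every 50-mer of the TES window of RPL25 occurs once in the genome. Elsewhere RPL25 lay in the range of the others, with a depletion of 55 nucleotides, a +1 peak of 12.4 RPM and a body signal of 5.93 RPM.

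Other gene lists were read the same way. Small-subunit ribosomal protein genes had a body signal under the bound in 30 of 44, and mitochondrial large-subunit genes, which have no such copies, in 1 of 15. At least 1 copy bin was found in 42 of 46 small-subunit genes. At single-copy bins the median was 6.66 RPM over 36 small-subunit genes, and it was 6.09 RPM over 15 mitochondrial genes. The 12 other large-subunit genes of the tables, RPL35 to RPL43 and the stalk proteins, had a body signal under the bound in 4 of 12. Yet 11 of these 12 have copy bins, against 43 of 52 RPL genes. Their median share of body bins with a copy was 53.3%, against 60.9% over the RPL genes. Glycolytic genes, which are also heavily transcribed, had a body signal under the bound in 7 of 11, and 6 of the 11 have copy bins. At single-copy bins the glycolytic median was 5.01 RPM over 5 genes, with 1 of 5 under the bound for such bins. All of these were exon bins, and the RPL median at single-copy exon bins was 5.56 RPM over 7 genes. A width of at least 150 nucleotides was found at 0 of 46 small-subunit, 0 of 12 other large-subunit, 1 of 15 mitochondrial and 0 of 11 glycolytic genes.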

How the data were processed

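The authors digested chromatin of WT cells with MNase, mapped SOLiD reads of the protected DNA to sacCer3 using bfast and made the deposited tables with ngs.plot, whose values are a coverage signal in RPM. The study's methods say that its average plots from ngs.plot used a pair of replicate experiments for each genotype. Whether these tables pool replicates is not given in the sources used here, nor is the transcript annotation. Each table has 101 value columns, of which the outer 20 on each side repeat the edge and were left out. All 9704 edge values are whole multiples of 0.0300 RPM within 0.01 reads.

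Genes were joined by name to R64, where 2425 of 2426 were found. The start codon was placed 25 nucleotides after the TSS and the stop codon 85 before the TES. Identity to other places was taken with BLAST 2.17.0 over windows of 50 nucleotides. The tables overlap at most RPL genes, and with the best of the lengths tried 42 of 48 correlated by at least 0.9, at a median distance from TSS to TES of 115 nucleotides beyond the coding span. The code for the measures was tested on simulated profiles without noise. Python 3.11.15, numpy 2.4.6, pandas 2.3.3 and Biopython 1.88 were used.

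The members and lists were chosen with earlier results of these data known. Every RPL gene with a row could be named. The 5 widest and narrowest depletions, the 3 highest and lowest values of the +1 peak, body and TES, and the paralog pairs were described in full. A value at the TES that this rule names is not reported here. The alternatives covered the levels, bins, averages, scale and genes used.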

Additional observations from a re-analysis of the deposited data

How the results depend on the processing

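Of 76 values recomputed under alternatives, 42 stayed close. For widths, levels, positions and ratios this meant the same direction and a value within the 95% binomial interval of the median. For shares it meant only a value within 1.5 times the main share, and their direction against all genes was not checked. A further 23 moved further and 9, none of them a share, turned round. In the other 2, the difference in +1 position of 3.65 nucleotides became 0, without interpolation or with the highest bin within 200 nucleotides of the lowest. No paired analysis was possible because the tables hold 1 sample. Alternatives that use copies were chosen after seeing the data. Values are the RPL genes against the other genes, and each share is followed by that of all genes under the same alternative. The share of RPL genes with a depletion of at least 150 nucleotides was 5.77% (4.04%), and became 0% with a level of 40% (2.18%), with each gene's own mean (2.93%) or with unique 50-mers (3.25%), 9.62% with a level of 60% (6.76%) or without interpolation (5.61%), and 15.4% with a level of 75% (14.8%). The unique 50-mers were asked over the whole TSS window, which left 25 RPL genes, without RPL4B, RPL8A and RPL8B. With genes without a copy from -300 to -50 nucleotides the share stayed at 5.77% (3.19%). The difference in median width of -12.3 nucleotides became -36.1 with own means. The share with a depletion under 50% of the +1 bins became 88.5% with the lowest single bin (88.1%) and 17.3% with bins from -200 to -50 (30.2%). Divided by each gene's own mean, the depletion level was 1.33 times that of the other genes, the +1 height 1.19 times (turned round) and the share of high +1 peaks 57.7% (25%). Own means are lower where the body has copies. The +1 height also turned round with unique 50-mers (1.07 times) and without copies in its window (1.09 times). Without copies there the share of high +1 peaks went from 23.1% (25%) to 33.3% (25%), above that of all genes. The body ratio of 0.636 became 0.912 over bins to 500 nucleotides, 0.881 with unique 50-mers, 0.208 without introns, 0.984 without copies, and turned round at single-copy bins, to 1.09, 1.11 or 1.08 with the start codon 25, 0 or 50 nucleotides after the TSS. The share under the bound became 32.7% to 500 nucleotides (12.9%), 23.8% with unique 50-mers (8.57%) and 0% for each choice without copies (7.72% to 8.65%). The TES ratio of 1.00 turned to 0.993 with unique 50-mers, 0.897 with convergent neighbours and 0.964 without copies from -140 to 80 nucleotides. The last choice drops RPL genes by copies upstream of the TES bins, since none of them has a copy in the TES bins. Under that choice, over 10 genes, the share with a low TES became 30% (27.8%) and that with a ratio of at least 1.5 became 20% (34.1%). With 1 sample, no replicate error bounds these values.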
